A study of Mus musculus with 14 samples.

Results

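The collagen genes of the fetal mouse brain were described at E13.5 and E18.5, as the rows whose symbol reads Col, a type number, a and a chain number. There were 44 such genes among the 41934 genes of each table, and all 44 reached 10 mean normalized counts at each age, so that no member was lost to this filter. They were sorted by textbook structure into 11 fibrillar, 6 basement membrane (Col4), 9 FACIT, 6 beaded filament (Col6) and 4 transmembrane collagens, and 8 genes of smaller classes.

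The libraries came from total RNA of whole brains of single male fetuses on a C57BL/6J background. At E13.5 there were 4 Dio3+/+ and 2 Dio3-/- libraries, and at E18.5 there were 3 Dio3+/+ and 5 Dio3-/- libraries, all from littermates of timed matings between heterozygous mice. Dio3 encodes the deiodinase that inactivates thyroid hormone, and the Dio3-/- mice carry point mutations that leave an inactive enzyme but spare the mRNA. The deposited value used here is the authors' mean normalized count over all libraries of an age, which pools both genotypes. The Dio3-/- libraries made up 33.3% of the pool at E13.5 and 62.5% at E18.5, so age and genotype composition cannot be told apart in a difference between the ages. Per the methods, the libraries came from 2 batches made with different kits and sequencers. How the batches divide between the ages was not examined, so a part of batch in such a difference cannot be told apart either. The authors' comparison of the genotypes was not used here. The tables used here give neither the depth nor the spread of single libraries, so no value has a replicate error, no difference was tested and higher or lower refers to pooled values only. Dio3, the targeted gene, had a mean normalized count of 99.0 at E13.5 and 129 at E18.5, and a pooled mean checks no genotype label.

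Collagens are secreted or membrane-bound proteins built of 3 chains wound into a triple helix. Fibrillar collagens form the banded fibrils of dermis, bone, tendon and cartilage, and FACIT collagens sit on the surface of such fibrils. Collagen IV forms the network of basement membranes, collagen VI forms beaded filaments near cells, and transmembrane collagens span the plasma membrane. In the brain, collagens are known mainly from the meninges and the vessel walls, while some transmembrane and FACIT members are made by neurons.

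The genes of collagen IV lie in head-to-head pairs on opposite strands. Where the genes of a pair do not overlap, the sequence between the starts lies upstream of both. In the GENCODE annotation of GRCm38, Col4a1 (chr8:11198423-11312826, minus strand) and Col4a2 (chr8:11312805-11449287, plus strand) overlap by 22 bases. Between Col4a4 (chr1:82448423-82586849, minus strand) and Col4a3 (chr1:82586921-82722059, plus strand) there are 71 bases. Col4a6 (chrX:141165403-141474076, minus strand) and Col4a5 (chrX:141475385-141689234, plus strand) are 1308 bases apart. The start regions of the closest pairs are shown because the levels of the paired genes are compared with each other further on. They are RefSeq windows on GRCm38.p6, from 250 bases before to 50 bases after the start, each written on its gene's own strand. Capitals mark the 78 bases that the windows of Col4a1 (chr8:11312777-11313076) and Col4a2 (chr8:11312555-11312854) share, and in the window of Col4a4 (chr1:82586800-82587099) the bases that lie between Col4a4 and Col4a3.
Col4a1: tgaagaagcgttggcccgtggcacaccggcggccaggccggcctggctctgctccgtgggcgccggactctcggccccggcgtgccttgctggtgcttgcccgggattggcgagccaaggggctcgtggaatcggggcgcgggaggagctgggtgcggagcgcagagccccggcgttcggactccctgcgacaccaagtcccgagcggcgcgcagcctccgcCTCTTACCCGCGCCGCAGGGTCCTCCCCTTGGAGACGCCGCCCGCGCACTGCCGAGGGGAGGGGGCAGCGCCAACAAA
Col4a2: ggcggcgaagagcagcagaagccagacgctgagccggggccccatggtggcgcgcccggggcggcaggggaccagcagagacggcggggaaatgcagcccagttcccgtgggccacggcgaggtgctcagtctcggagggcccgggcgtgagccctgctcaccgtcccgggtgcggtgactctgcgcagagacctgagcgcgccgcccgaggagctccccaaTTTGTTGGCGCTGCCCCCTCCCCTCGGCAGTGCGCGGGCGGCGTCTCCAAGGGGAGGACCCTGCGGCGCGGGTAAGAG
Col4a4: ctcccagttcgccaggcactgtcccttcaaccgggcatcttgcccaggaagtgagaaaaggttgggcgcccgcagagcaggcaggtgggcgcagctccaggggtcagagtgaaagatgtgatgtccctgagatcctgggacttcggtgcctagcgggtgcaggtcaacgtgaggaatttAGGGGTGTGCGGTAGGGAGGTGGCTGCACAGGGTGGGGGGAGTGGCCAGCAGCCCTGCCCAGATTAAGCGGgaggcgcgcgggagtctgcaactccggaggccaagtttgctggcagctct

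Windows of 300 bases were found for 35 of the 44 collagen genes, 38 windows in all. Those without one were Col1a1, Col2a1, Col4a3, Col5a2, Col9a3, Col12a1, Col14a1, Col22a1 and Col26a1. Read on both strands, the letters GGGCGG of the GC box occurred in 60.5% of the collagen windows and in 35.7% of all 32851 windows. The CCAAT box, spelled CCAAT, was in 34.2% of the collagen windows against 37.4% of all windows. TATAAA, the core of the TATA box, was in 13.2% against 13.6%. The windows of Col4a1 and Col4a2 held GGGCGG and CCAAT, and that of Col4a4 held none of the 3 motifs. These matches describe letters and were not set against binding or start site data.

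Levels were compared between genes only per length. The mean normalized count was divided by the kilobases of annotated exon and scaled so that all protein-coding genes off the mitochondrial genome summed to 1000000, and this level per length is given in parts of that sum, written ppm. On this scale the 44 collagens summed to 1756 ppm at E13.5 and 1132 at E18.5, a ratio of 0.645. The highest member at E13.5 was Col1a1 at 304 ppm (Col3a1 where the longest transcript gave the length), and at E18.5 it was Col4a1 at 192. The lowest were Col4a3 at 0.23 ppm at E13.5 and Col6a6 at 0.60 at E18.5. By exon length, Col1a1, Col3a1, Col4a1 and Col4a2 were the 4 highest genes at both ages and held 52.5% of the collagen level at E13.5 and 54.0% at E18.5. With the longest transcript or without division by length, Col1a2 took the place of Col4a2 among them at E13.5 and that of Col3a1 at E18.5.

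**Figure D1:**
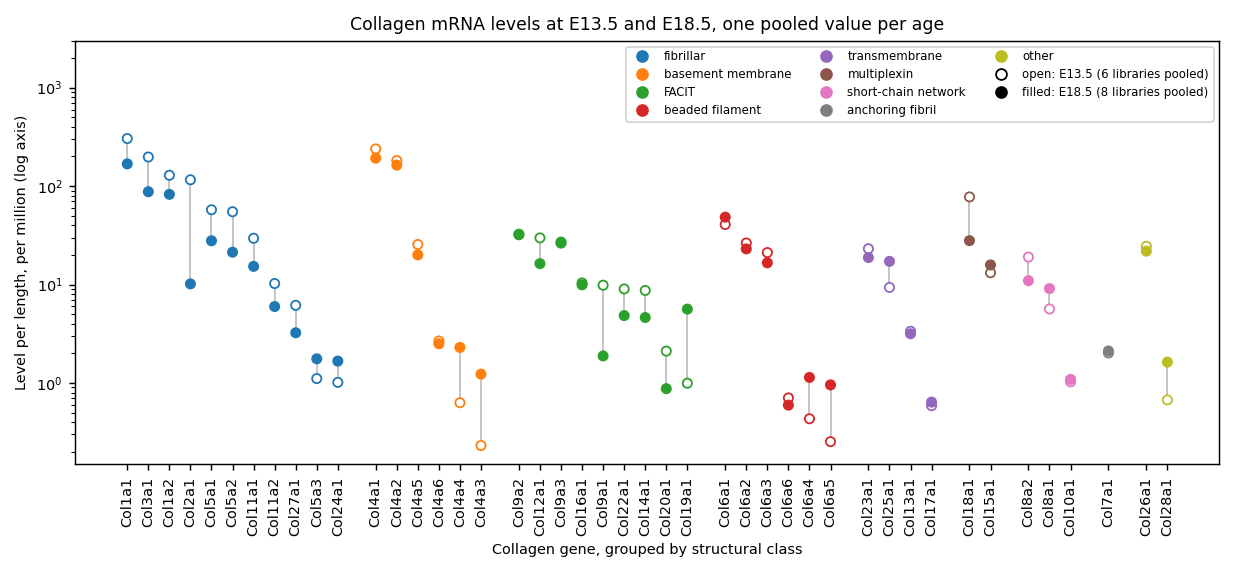
Level of each of the 44 collagen genes per length in ppm, on a log axis, with E13.5 as open and E18.5 as filled points, each 1 value pooled by the authors over 6 or 8 libraries, so that there are no error bars. The levels run from 0.23 to 304 ppm, and the distance between the points is widest for Col2a1, Col9a1, Col19a1 and Col4a3.

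By class, the fibrillar collagens held 51.7% of the collagen level at E13.5 and 37.6% at E18.5. The basement membrane collagens held 25.6% and 33.7%, and the FACIT collagens 7.36% and 9.15%. The beaded filament class held 5.11% and 8.01%, and the transmembrane class 2.07% and 3.52%. The summed fibrillar level was 907 ppm at E13.5 and 426 at E18.5, which is 2.13-fold lower at the later age. The basement membrane sum was 450 against 382, and the FACIT sum 129 against 104. The sums of the beaded filament class, 89.7 against 90.7, and of the transmembrane class, 36.4 against 39.8, lay close together, and both were lower at E18.5 when the deposited means were not scaled further (log2 ratios of -0.23 and -0.11). Of the 5 classes compared, the fibrillar class thus had the lowest ratio of sums, at 0.47. The median log2 ratio of its genes, -0.93, lay close to the -0.87 of the FACIT genes. It was -0.12 for the basement membrane, 0.02 for the beaded filament and 0.02 for the transmembrane class. Outside the 5 classes, the sum of the 2 multiplexins had a ratio of 0.48.

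**Figure D2:**
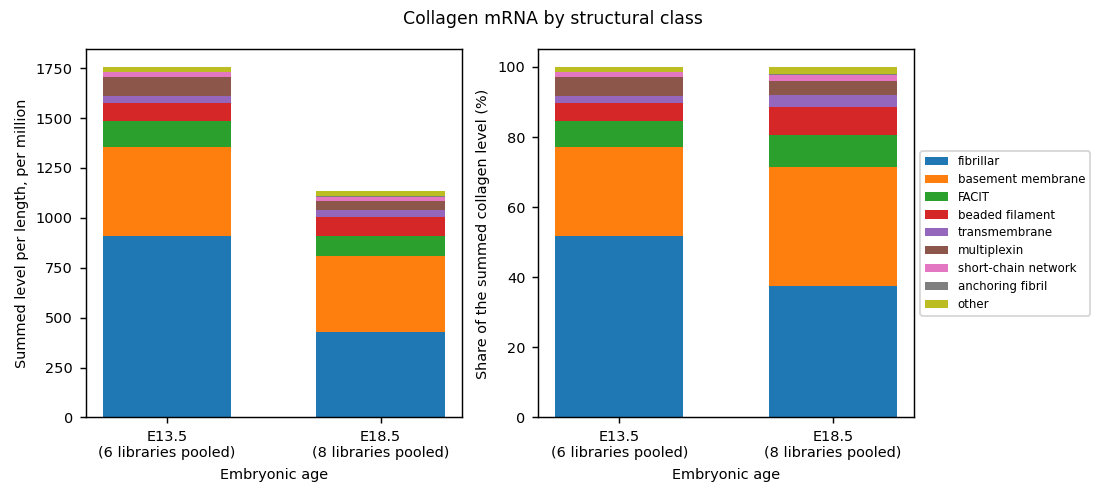
Summed level of the collagen classes at each age (left, per length in ppm) and the share of each class in the collagen sum (right, percent), with 1 pooled value per age. The fibrillar part goes from 907 to 426 ppm and from 51.7% to 37.6%, while the basement membrane part goes from 450 to 382 ppm and from 25.6% to 33.7%.

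Of the 44 collagen genes, 7 were at least 2-fold lower at E18.5 than at E13.5, which is 15.9% of them. Among all 17794 genes that reached 10 mean normalized counts at each age, 6.11% were that much lower. A further 6 members (13.6%) were at least 2-fold higher at E18.5, near the 11.5% of all genes, and 31 lay within 2-fold. The median log2 ratio of E18.5 to E13.5 was -0.18 over the collagens and -0.04 over all genes tested, and 27 collagens (61.4%) had a ratio under 1, against 52.8% of all genes tested. Taken directly from the deposited means, without the scaling of levels to 1000000, 15 collagens were at least 2-fold lower and 6 higher, because every log2 ratio was lower by 0.24. Of all genes tested, 10.1% were then at least 2-fold lower and 8.4% at least 2-fold higher. The ratios of Col7a1, Col9a2, Col9a3, Col10a1 and Col17a1 then also crossed 1, and 32 collagens were lower at E18.5, as were 67.2% of all genes tested.

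The ratios differed with the level of the gene, a split made after the values were seen. All 13 collagens with an average of at least 1000 normalized counts over the ages were lower at E18.5, with a median log2 ratio of -0.87, against -0.06 over the 5839 genes at this level. 5 of these 13 were at least 2-fold lower, where 4.37% of all genes at this level were. These 5 were Col18a1 and the fibrillar Col2a1, Col3a1, Col5a1 and Col5a2. The 13 also held the fibrillar Col1a1, Col1a2 and Col11a1, so level and class cannot be told apart in this split. Of the 12 collagens with an average under 100, 3 were lower at E18.5 and 5 were at least 2-fold higher. At this level 13.53% of all genes were at least 2-fold higher. The median log2 ratio was 0.69 for the 12 collagens and 0.035 over the 5158 genes at this level. The share of genes with a ratio under 1 was taken only over all levels, where it was 52.8%. The 6 members more than 2-fold higher at E18.5 had mean normalized counts of 12.3 to 36.6 at E13.5, so that few reads stand behind their lower value. None of the members was under the threshold of 10, and those nearest to it were Col4a3 (12.3) and Col6a5 (12.7) at E13.5 and Col10a1 (15.4) and Col17a1 (17.3) at E18.5.

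**Figure D3:**
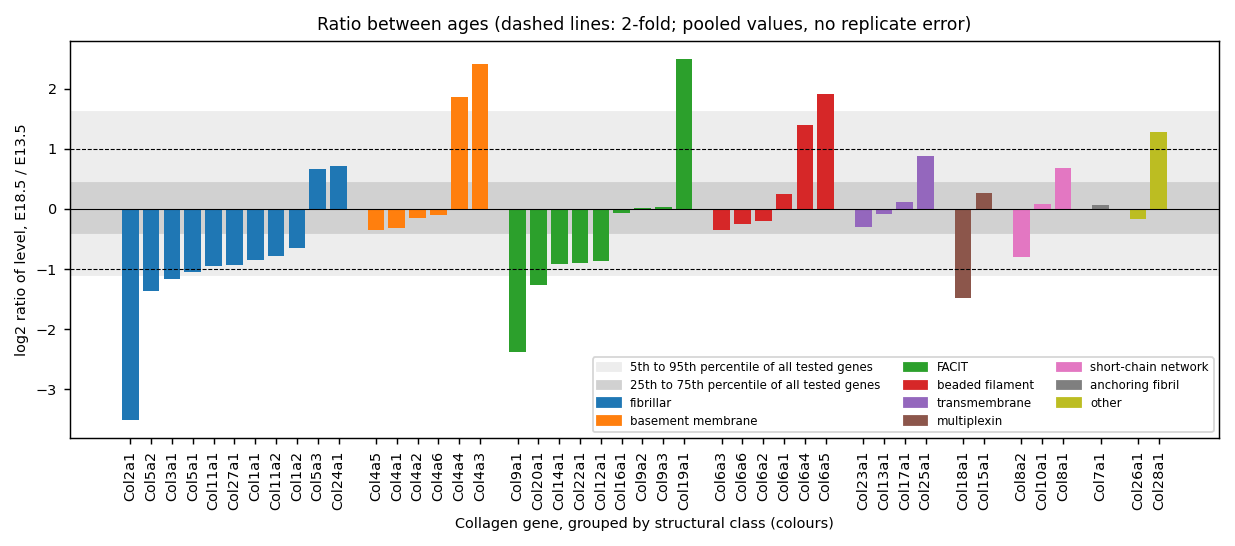
The log2 ratio of the level at E18.5 to that at E13.5 for each collagen gene, sorted within classes, with the bands of the middle ratios of all 17794 tested genes in grey and dashed lines at 2-fold. The bars have no error, since each age has 1 pooled value. 9 of the 11 fibrillar genes point down, while 52.8% of all tested genes were lower at E18.5. Col2a1 reaches furthest down at -3.51, and the longest upward bars are Col19a1 and, at 2.41, Col4a3.

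Among the fibrillar collagens, 9 of 11 genes were lower at E18.5, 4 of them by at least 2-fold. Of all genes tested, 52.8% were lower and 6.11% at least 2-fold lower. Col1a1 and Col1a2, the chains of collagen I of bone, dermis and meninges, had mean normalized counts of 10662 and 8554 at E13.5 and of 4986 and 4627 at E18.5. Their log2 ratios were -0.85 and -0.64. Col3a1, which makes the collagen III of soft connective tissue and vessel walls, had a mean normalized count of 10361 at E13.5 and 3888 at E18.5, 2.25-fold lower by level. Its neighbour Col5a2 lies tail to tail with it, 24614 bases away, and was 2.58-fold lower, from 54.9 to 21.3 ppm. Col5a1, the partner of Col5a2 in collagen V, which regulates the width of collagen I fibrils, was 2.07-fold lower, from 57.5 to 27.8 ppm.

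Col2a1, which encodes the main collagen of cartilage and is also made by early neuroepithelium and notochord, was the collagen with the lowest ratio. Its mean normalized count was 5728 at E13.5 and 424 at E18.5. Per length this was 116 ppm at E13.5 and 10.2 at E18.5, 11.4-fold lower, which put its ratio at percentile 0.04 of all tested genes. It ranked 6 of 44 among the collagens at the earlier age and 22 at the later one. Without Col2a1, a choice made after its value was seen, the fibrillar sum was still lower at E18.5, with a ratio of 0.53 in place of 0.47.

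The other chains found in cartilage fibrils were lower by less. Col11a1 had 29.5 ppm at E13.5 and 15.3 at E18.5, and Col11a2 had 10.2 and 5.97. The ratio of Col2a1 to Col11a1 was 3.93 at E13.5 and 0.66 at E18.5, so that their order was reversed between the ages. Col27a1, a fibrillar collagen of cartilage growth plates, had a log2 ratio of -0.93. Col24a1 and Col5a3 were the fibrillar genes higher at E18.5, from 1.01 to 1.67 and from 1.11 to 1.76 ppm, within 2-fold.

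Markers of cartilage other than collagens were also lower at E18.5 where they passed the filter. All 5 of the 10 listed markers that had a mean of at least 10 at both ages were lower, as were 52.8% of all genes tested. Matn4 was 2.81-fold, Cnmd 2.97-fold and Acan 1.84-fold lower, and the median log2 ratio of the 5 was -1.05. The other 5 were under 10 at one of the ages or at both, with Matn1 and Matn3 lower and Ucma, Snorc and Comp higher. The summed level of the 10 markers was 238 ppm at E13.5 and 117 at E18.5, most of it from Sox9, which neural progenitors express as well. Col10a1, the collagen of hypertrophic cartilage, was near the lowest collagens at both ages, at 1.03 and 1.09 ppm. Of 6 bone markers 3 passed the filter, of which Runx2 and Sp7 were 2.35-fold and 1.98-fold lower at E18.5 and Alpl had a ratio of 1.17. Ibsp, under 10 at E13.5, had mean normalized counts of 7.26 and 40.2, and Dmp1, under 10 at E18.5, had 24.7 and 9.44. The bone list summed to 22.6 and 24.6 ppm, most of it from Alpl (14.2 and 16.5 ppm), with Bglap near 0 (0.26 and 0.28 ppm). Of 9 skeletal muscle markers 4 passed the filter, and Myh3 was 5.69-fold lower while Acta1 was 2.65-fold higher. The muscle list summed to 16.0 ppm at E13.5 and 21.2 at E18.5, of which Acta1 held 5.94 and 15.7. Of the defining regulators Myod1 had 0.92 and 0.33 ppm and Myog 1.34 and 0.17. In whole-tissue RNA, fewer cells of a type and less RNA per cell cannot be told apart. The part of these tissues in the collagen ratios was not tested.

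The basement membrane class was dominated by Col4a1 and Col4a2, the chains of the collagen IV found in nearly all basement membranes. Col4a1 had a mean normalized count of 9519 at E13.5 and 6482 at E18.5, which is 239 and 192 ppm. Col4a2 had 6423 and 4885, which is 182 and 163 ppm. Both were within 2-fold between the ages, with log2 ratios of -0.31 and -0.15, and their levels lay in the upper 10% of tested genes. The ratio of Col4a1 to Col4a2 was 1.31 at E13.5 and 1.18 at E18.5.

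Col4a3 and Col4a4, which share a start region and form with Col4a5 the collagen IV of mature kidney, lung, ear and eye basement membranes, were much lower in level. Col4a3 had a mean normalized count of 12.3 at E13.5 and 55.3 at E18.5, and Col4a4 had 35.7 and 110. Per length they went from 0.23 to 1.23 ppm and from 0.63 to 2.30 ppm, which was 5.31-fold and 3.64-fold higher at E18.5. Exons of another gene, C430014B12Rik, overlap 5.65% of the exon length of Col4a3.

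Col4a5 was at 25.5 ppm at E13.5 and 20.0 at E18.5, and Col4a6, its neighbour across the start, had mean normalized counts of 114 and 90.1. Both were within 2-fold, and the level per length of Col4a5 was 9.55 times that of Col4a6 at E13.5. The ratio of Col4a5 to Col4a3 was 110 at E13.5 and 16.3 at E18.5. Each head-to-head pair thus had both members on the same side of 1 between the ages, although the levels within the pair of Col4a5 and Col4a6 were far apart. Of the 8 pairs of neighbouring collagen genes within 200000 bases, only the 3 of this class are head to head. Lying on the same side was not particular to them. Col3a1 and Col5a2, tail to tail, and Col6a5 and Col6a4, on the same strand, did so too. Col9a1 and Col19a1, Col6a2 and Col6a1, and Col6a6 and Col6a5 did not. Among all genes tested, 52.8% had a ratio under 1.

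The FACIT class held genes with opposite ratios. Col9a1, Col9a2 and Col9a3 encode the chains of collagen IX, which coats collagen II fibrils in cartilage. Col9a1 had a mean normalized count of 267 at E13.5 and 43.1 at E18.5, 5.23-fold lower by level. Col9a2 (530 and 453) and Col9a3 (543 and 469) had log2 ratios of 0.02 and 0.03, which were negative without scaling and with the total taken over all genes. The level of Col9a2 was 3.26 times that of Col9a1 at E13.5 and 17.2 times at E18.5, while the ratio of Col9a2 to Col9a3 was 1.22 and 1.20. The 3 chains of collagen IX thus had unequal ratios. Exons of Tcfl5 overlap 6.07% of the exon length of Col9a3.

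Col19a1, made by subsets of neurons, lies tail to tail with Col9a1, 9205 bases away on chromosome 1, and had the highest ratio of all 44 collagens. Its mean normalized count was 36.6 at E13.5 and 175 at E18.5, and its level went from 0.99 to 5.63 ppm, 5.66-fold higher. Its ratio stood at percentile 98.7 of all tested genes. These neighbours thus had the lowest and the highest ratio within the FACIT class.

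The remaining FACIT genes were lower or near 1. Col12a1, a collagen of dense connective tissue, had 29.8 ppm at E13.5 and 16.3 at E18.5. Col14a1 (8.71 and 4.63 ppm) and Col22a1 (9.02 and 4.84) had log2 ratios of -0.91 and -0.90. Col20a1 was 2.41-fold lower, from 2.11 to 0.88 ppm, and Col16a1 had 10.4 and 9.94. Col9a2 and Col9a3, at 32.1 and 26.4 ppm among the highest of the class at E13.5, were near 1 in ratio, and the FACIT sum had a log2 ratio of -0.32 while the median gene had -0.87.

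In the beaded filament class, Col6a1, Col6a2 and Col6a3 encode the common chains of collagen VI. Col6a1 had a mean normalized count of 953 at E13.5 and 957 at E18.5, which is 40.7 and 48.4 ppm. Col6a2 had 1176 and 865 (26.4 and 23.0 ppm), and Col6a3 had 1350 and 898 (21.1 and 16.6 ppm). All 3 were within 2-fold between the ages. The ratio of Col6a1 to Col6a3 was 1.93 at E13.5 and 2.91 at E18.5.

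Col6a4, Col6a5 and Col6a6 are chains that can take the place of the Col6a3 chain, and lie in a row on chromosome 9. Col6a5 went from 0.25 to 0.96 ppm, 3.78-fold higher, and Col6a4 from 0.43 to 1.14, 2.63-fold higher. Col6a6 had 0.70 and 0.60 ppm. The level of Col6a3 was 83.4 times that of Col6a5 at E13.5 and 17.4 times at E18.5. Together Col6a4, Col6a5 and Col6a6 had 1.39 ppm at E13.5 and 2.69 at E18.5.

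None of the transmembrane collagens differed by 2-fold between the ages. Col23a1 was the highest of the class, at 23.1 ppm at E13.5 and 18.8 at E18.5. Col25a1, a neuronal collagen known for its role in motor axon growth into muscle, had a mean normalized count of 647 at E13.5 and 1006 at E18.5. It went from 9.35 to 17.2 ppm, a log2 ratio of 0.88. Col13a1 (3.36 and 3.16 ppm) and Col17a1 (0.59 and 0.64), known from neuromuscular junctions and from skin, were low at both ages.

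Of the multiplexins, Col18a1, a basement membrane proteoglycan that is the source of endostatin, had 77.7 ppm at E13.5 and 27.9 at E18.5, 2.78-fold lower. Col15a1, the other multiplexin, had 13.2 and 15.8 ppm. The short-chain collagens of Descemet membrane and vessels, Col8a1 (5.65 and 9.10 ppm) and Col8a2 (19.0 and 11.0), had log2 ratios of 0.69 and -0.80. Col26a1 had 24.5 and 21.8 ppm. Col28a1 was 2.42-fold higher, from 0.67 to 1.63 ppm, and Col7a1, the anchoring fibril collagen of skin, had 2.02 and 2.11.

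The ratios between chains depended on the length used. With exon lengths, Col1a1 was 2.36 times Col1a2 at E13.5 and 2.04 times at E18.5, while with the longest annotated transcript the values were 1.12 and 0.97. For Col6a1 to Col6a2 they were 1.54 and 2.10 with exon lengths and 0.97 and 1.33 with the longest transcript. Such ratios within a trimer are therefore known only to about this factor. The ratio between ages of a single gene does not depend on its length.

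Genes that act on collagens were taken from lists of enzymes, partners and receptors. Of 69 such genes with a mean of at least 10 at both ages, 44 were lower at E18.5, 7 of them by at least 2-fold, and 5 were at least 2-fold higher, with a median log2 ratio of -0.22. These counts stand beside 52.8% of all genes tested that were lower, 6.11% at least 2-fold lower and 11.5% at least 2-fold higher. Among the 16 hydroxylases, glycosyltransferases and their cofactors, 12 were lower and none differed by 2-fold. The highest, P4hb, a subunit of prolyl 4-hydroxylase and a protein disulfide isomerase, had 490 ppm at E13.5 and 320 at E18.5, and Colgalt1, which glycosylates collagen, had 73.2 and 81.0. Serpinh1, the collagen chaperone HSP47, was the gene of its list of 7 with the lowest ratio, from 524 to 223 ppm, 2.35-fold lower. Hsp90b1 had 412 and 329 ppm, and Sparc 331 and 364.

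The enzymes that trim and crosslink fibrils differed among themselves. Adamts3 and Adamts2, which remove amino-terminal propeptides of fibrillar procollagens, were 2.73-fold (15.2 and 41.4 ppm) and 2.11-fold higher at E18.5, while Bmp1, which removes carboxy-terminal ones, had 58.7 and 36.4 ppm. Lox, which crosslinks collagen, had 41.0 and 39.1 ppm. Pxdn, whose product crosslinks collagen IV, had 123 and 87.9 ppm.

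Of the 13 other basement membrane proteins, 10 were lower at E18.5, of which Lama1 passed 2-fold, from 42.7 to 20.7 ppm. Agrn, which encodes agrin and is also active in neurons, was the highest of them, with 466 and 308 ppm, followed by Nid1, with 110 and 106. The partners of fibrils held both directions. Lum, a proteoglycan that binds collagen fibrils, was 4.14-fold lower, from 81.8 to 19.8 ppm. Omd was 4.07-fold higher, from 0.94 to 3.84 ppm, Ogn 2.16-fold higher, from 29.1 to 62.7 ppm, and their relative Fmod 3.67-fold higher, from 11.0 to 40.3 ppm, and Fn1 had 153 and 111. 4 of 9 collagen receptors were at least 2-fold lower, as were 6.11% of all genes tested, among them Ddr1 (271 and 105 ppm) and Adgrg1 (366 and 169), a receptor for collagen III on neural progenitors. Itgb1, the common beta chain of the collagen-binding integrins, had 271 and 232 ppm.

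**Figure D4:**
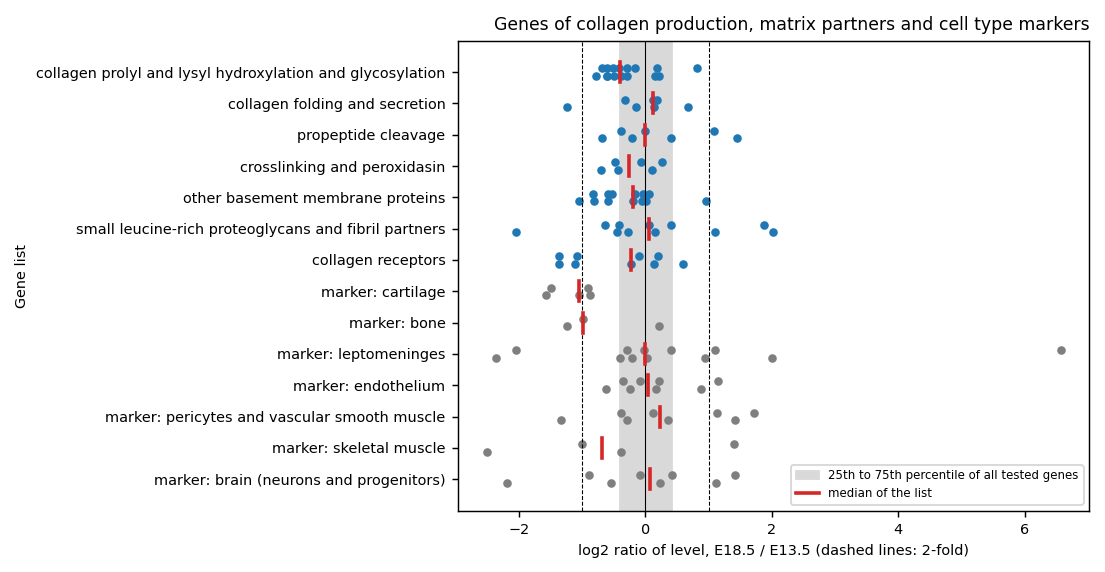
The log2 ratio of the level at E18.5 to that at E13.5 for each gene of the lists of collagen partners (blue) and cell type markers (grey), with the median of each list in red, the middle ratios of all tested genes as a grey band and dashed lines at 2-fold. Each point is a ratio of pooled values without error. The median is -0.40 for the hydroxylation and glycosylation genes and -1.05 for the cartilage markers, and near 0 for the markers of leptomeninges and endothelium.

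Markers of the cell types that hold most collagen in the brain were mixed. Of 12 leptomeninges markers, 6 were lower and 6 higher at E18.5, from Crabp2, 5.17-fold lower, to Ptgds, which was 7.40 ppm at E13.5 and 704 at E18.5. Their summed level was 1047 ppm at E13.5 and 1617 at E18.5, with a median log2 ratio near 0. The higher sum at E18.5 rests on Ptgds. At E13.5 its largest parts were Zic1 (340 ppm, and 335 at E18.5) and Igfbp2 (315 ppm, and 272 at E18.5). How far these markers are limited to the leptomeninges was not tested, so the sum is not a measure of that tissue. Dcn, Lum and Ogn of this list also stand among the fibril partners. The 8 endothelial markers summed to 327 and 397 ppm, with 4 lower, 4 higher and a median log2 ratio of 0.04. Cldn5 held 84.1 ppm of this sum at E13.5 and 155 at E18.5. Of 8 markers of pericytes and vascular smooth muscle, 5 were higher (295 and 362 ppm in sum), with Rgs5 2.68-fold higher and Notch3 2.52-fold lower. The higher sum rests on Rgs5, which went from 75.3 to 202 ppm. The neural markers Tubb3 (3721 and 3519 ppm) and Dcx (849 and 995) were abundant at both ages, and Nes, of neural progenitors, was 4.54-fold lower at E18.5. The part of these cell types in the collagen ratios was not tested.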

How the data were processed

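RNA of 14 whole fetal brains was sequenced. Per the labels and the methods, the authors trimmed the reads (Cutadapt 3.1), aligned them to GRCm38 with the GENCODE VM22 annotation (STAR 2.5.3a), counted them on exons without strand (HTSeq), adjusted the counts between 2 sequencing batches (ComBat-seq) and normalized them within each age (DESeq2 1.30.1). The deposited value, 1 signal per gene and age, is the average of these counts over both genotypes. Batch adjustment and pooling may alter levels, and both are fixed in the files. The other deposited columns hold the authors' genotype comparison (fold changes, errors and p-values) and were not used. No column of single samples was set aside (0 columns).

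Exon lengths came from GENCODE M21, which matched 41897 genes by identifier and left 37 without a length. Levels per kilobase were scaled to a sum of 1000000 over 21793 protein-coding genes outside the mitochondrial genome (Python 3.11.15, pandas 2.3.3). Each age was normalized separately by the authors, so the ratio between ages rests on this scaling. The scaling was run on simulated data, the E13.5 means with known fold changes put into a small part of the genes. This checks the arithmetic only and cannot show which scaling suits the 2 ages. A ratio of at least 2 counted as called. Reads on exons shared between genes may be lost or misassigned: 13 collagens overlap other exons, none over 10% of its length.

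Members and lists were chosen with earlier results of these data known. Every collagen was named. In full were given the highest members of each class, those past 4-fold, chains of 1 trimer and members near the threshold, and of each partner list the highest genes and those past 4-fold. 1 listed symbol, Ctage5, matched no row, and Gp6 and others under the minimum of 10 were left out. The planned count of helix repeats was not made, since protein sequences were not used here. Alternatives were other scalings, folds, filters and lengths. Leaving out a library was not possible with pooled means.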

Additional observations from a re-analysis of the deposited data

How the results depend on the processing

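No paired analysis was possible because the tables hold 1 pooled mean per age, which also leaves no replicate to leave out, and the tables give no depth per library. The log2 ratios of the class sums moved with the scaling. Without scaling of the deposited means they were -1.33 (fibrillar), -0.48 (basement membrane), -0.56 (FACIT), -0.23 (beaded filament), -0.11 (transmembrane) and -0.88 (all collagens). By the median ratio they were -1.05, -0.19, -0.28, 0.057, 0.17 and -0.59, and with the total over all genes -1.14, -0.28, -0.37, -0.032, 0.081 and -0.68 in the same order. Both the beaded filament and the transmembrane sum thus changed direction with the scaling, while the fibrillar sum was lower under each of these scalings. With Col2a1 left out, chosen after seeing the data, the log2 ratio was -0.93 for the fibrillar sum and -0.55 for all collagens, and without Col6a1, Col6a2 and Col6a3 it was 0.95 for the beaded filament sum. The count of collagens past the fold was 15 lower without scaling, where 10.1% of all genes tested were. At 1.5-fold it was 10 higher and 16 lower (20.1% and 15.5% of all genes), and at 4-fold 2 and 2 (2.94% and 0.94%). With a mean of at least 50 at both ages it was 0 higher and 5 lower of 31 (9.99% and 5.66% of all genes), since each of the 6 higher genes was under 50 at E13.5. No p-value belongs to these counts. The shares of the 5 classes in the collagen level at E13.5, in the order above, were 57.5%, 22.4%, 6.59%, 4.67% and 1.92% without division by length and 57.9%, 20.0%, 6.40%, 4.73% and 1.94% with the longest transcript. At E18.5 they were 43.5%, 30.8%, 7.39%, 7.13% and 3.97%, and 43.2%, 27.3%, 8.20%, 7.51% and 3.82%. With the longest transcript 9 of the 10 highest collagens at E13.5 and 8 at E18.5 were shared with the main order. Single genes kept their 2-fold calls when scaled by the median ratio or the total over all genes, while 8 gained one without scaling.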

Other observations

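Genes outside the collagen families whose products carry a collagen-like stretch were looked at after the collagen values had been seen. C1qa, C1qb and C1qc, the chains of the complement protein made by microglia, had levels per length of 22.5, 27.9 and 16.0 ppm at E13.5 and of 46.8, 44.5 and 33.4 at E18.5. All 3 chains were thus higher at E18.5, by 2.08-fold, 1.60-fold and 2.09-fold. Among the related neuronal genes, C1ql4 was 4.12-fold lower, from 50.3 to 12.2 ppm, while C1ql1 (41.7 and 34.0 ppm), C1ql2 (11.8 and 14.8) and C1ql3 (9.32 and 15.1) were within 2-fold. Colec12, a scavenger receptor with a collagen domain, had 27.6 and 21.2 ppm. Gldn, which encodes gliomedin, was 3.23-fold higher at E18.5, although its mean normalized count was 9.57 at E13.5. These are pooled values without a replicate error, and no explanation was tested.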
